A study of Mus musculus with 20 samples.

Results

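The genes described here encode the enzymes and exporters of xenobiotic metabolism: every gene in the deposited table whose symbol belongs to the cytochrome P450 (Cyp), glutathione S-transferase (Gst), aldo-keto reductase (Akr1), UDP-glucuronosyltransferase (Ugt), multidrug resistance protein (Abcc), carboxylesterase (Ces), flavin monooxygenase (Fmo) or sulfotransferase (Sult) families as the selection rule lists them. The rule found 81 of the 14633 genes in the table, made up of 25 Cyp, 17 Gst, 13 Akr1, 8 Ugt, 7 Abcc, 4 Ces, 4 Fmo and 3 Sult genes. Of these, 78 reached 1 FPKM in at least 5 libraries and were tested, and Gstt3, Ugt1a1 and Ugt1a2 did not. FPKM is a count of sequenced fragments scaled by transcript length and library depth.

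Poly-A RNA was sequenced from tumors that HEPA1-6 cells, a mouse hepatoma line, formed under the skin of C57/BL6 mice over 4 weeks. The groups were anti-CXCL10 antibody with GSK343 (5 libraries), anti-CXCL10 antibody alone (5 libraries), control antibody with GSK343 (5 libraries) and control antibody alone (4 libraries, replicates 1, 2, 3 and 5, with replicate 4 not analysed here). GSK343 inhibits EZH2, the methyltransferase that places the repressive H3K27me3 mark, and CXCL10 is a chemokine that draws T cells bearing its receptor CXCR3. All 4 groups shared the cell line, the host strain and the site of injection, the labels give no age or dose, and they do not say that each library came from its own animal, so p-values here measure the spread between libraries, which may be technical. Sample-sheet numbers repeat between the control antibody and the anti-CXCL10 libraries, so antibody and a possible sequencing set cannot be told apart.

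As background, detoxification runs in stages. Cyp and Fmo enzymes add oxygen to a foreign molecule, Ces enzymes cleave its esters and Akr1 enzymes reduce its carbonyl groups. Gst, Ugt and Sult enzymes then attach glutathione, glucuronic acid or sulfate, and Abcc pumps export the conjugate from the cell. Hepatocytes carry most of this machinery, and hepatoma cells usually keep a part of it.

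The tumors expressed a few of these genes at high levels and most at low ones. The mean over all 19 libraries was at least 100 FPKM for 6 genes, from 10 to 100 for 31, from 1 to 10 for 37 and under 1 for 7. Every row of the table reached 1 FPKM in at least 4 libraries, so lower genes may be missing from it. These levels and shares describe the listed genes only, which may not be all that the tumors expressed. The 10 highest held 67.5% of the FPKM of the 81 genes. Aldo-keto reductases took 43.6% of the total and glutathione transferases 37.5%, against 9.63% for the P450 genes, 4.09% for Abcc, 2.36% for Ugt, 2.01% for Fmo, 0.545% for Sult and 0.354% for Ces. The median level was 5.70 FPKM over the 81 genes and 9.06 FPKM over all genes of the table.

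Akr1a1, an aldehyde reductase, was the highest of them. It averaged 412 ± 37.5 FPKM with anti-CXCL10 and GSK343, 368 ± 46.9 with anti-CXCL10, 414 ± 41.6 with control antibody and GSK343, and 394 ± 18.6 with control antibody (SD, n = 5, 5, 5 and 4). Gstp1, the pi-class glutathione transferase, averaged 218 ± 23.8, 216 ± 23.5, 194 ± 54.3 and 228 ± 24.8 FPKM in the same order of groups. Gsto1, an omega-class transferase, averaged 211 ± 18.5, 193 ± 21.7, 195 ± 17.7 and 193 ± 18.7 FPKM. The ranges of these 3 genes overlapped between all 4 groups.

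The P450 genes were far lower per unit of length. Cyp2s1, the highest of them, averaged 39.4 ± 6.49 FPKM with anti-CXCL10 and GSK343, 37.0 ± 7.14 with anti-CXCL10, 36.8 ± 5.27 with control antibody and GSK343, and 34.5 ± 3.28 with control antibody. Cyp27a1, the mitochondrial sterol 27-hydroxylase, averaged 25.5 ± 4.21, 28.4 ± 0.979, 22.5 ± 2.92 and 28.4 ± 3.84 FPKM in the same order. Cyp2e1, which oxidises ethanol and other small molecules and is abundant in adult liver, averaged 0.711 ± 0.587, 1.70 ± 2.03, 0.977 ± 1.05 and 3.23 ± 2.08 FPKM, with 2 libraries listed at 0. Cyp3a11, Cyp7a1, Gsta1 and Ces1d are not analysed here.

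**Figure D1:**
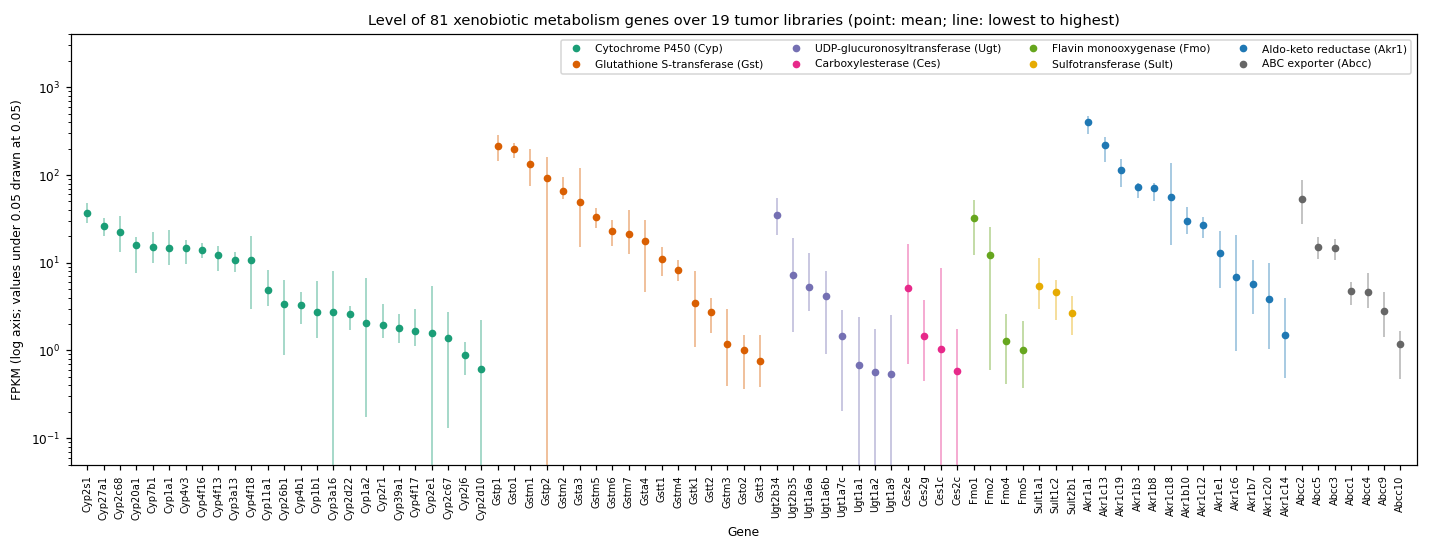
Level of each of the 81 genes by family, in FPKM on a log axis, with a point at the mean over 19 libraries, a line over the lowest to highest library, and values under 0.05 drawn at 0.05. Akr1a1 has the highest mean, at 397 FPKM. The lines of Gstp2 and Cyp2e1 are among those that reach the lower edge, and 8 members are listed at 0 in at least 1 library.

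GSK343 given with the control antibody went with lower levels of a set of hepatic detoxification genes and a higher level of Cyp4f18. Of the 78 genes tested, 9 passed an adjusted p of 0.05, 8 lower and 1 higher, in a limma model of log2(FPKM + 1) over all 19 libraries with Benjamini-Hochberg adjustment over 14385 genes. That is 11.5% of the 78, beside 5.47% of all genes tested. The 8 lower genes are 10.3% of the 78, against 1.11% of all genes called lower, and the higher one stands beside 4.36% of all genes called higher. Over all 78 the median log2 change was -0.21, against -0.03 over all genes, and 54 of the 78 lay below 0 (69.2%, against 56.6% of all genes). A log2 change below -0.5 was seen for 18 members (23.1%, against 3.14% of all genes) and one above 0.5 for 3 (3.85%, against 8.16%). At an unadjusted p of 0.05, 25 members were lower (32.1%, against 8.2%) and 4 higher (5.13%, against 10.7%). For 10 members every GSK343 library lay under every control library (12.8%, against 3.54% of all genes), and for 2 every one lay above (2.56%, against 4.05%). Fold changes on this scale understate the change of low genes.

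Among the aldo-keto reductases, 4 of 13 passed as lower and none as higher, beside 1.11% and 4.36% of all genes. The family median was -0.41, with 10 of the 13 below 0. Akr1c6 (ENSMUSG00000021210, chr13:4434306-4457530, plus strand, GRCm38), a 17-beta hydroxysteroid dehydrogenase of mouse liver, had 3.83, 1.56, 0.98, 1.83 and 1.28 FPKM with control antibody and GSK343, against 20.9, 8.26, 13.1 and 3.30 FPKM with control antibody. All but 1 of the GSK343 libraries lay under the lowest control library, and replicate 1 overlapped it. Akr1c6 fell by 1.94 on the log2 scale (SE 0.51, adjusted p = 0.0325), a mean 0.166 times that of the control antibody group.

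Akr1c19, another reductase of the subfamily, had 117, 81.5, 72.5, 77.3 and 95.2 FPKM with control antibody and GSK343, against 136, 114, 124 and 113 FPKM with control antibody. Its log2 change was -0.47 ± 0.12 (SE, adjusted p = 0.0313). Replicate 1 of the GSK343 libraries was again the one inside the control range. Akr1c12 averaged 22.5 ± 2.79 FPKM with control antibody and GSK343 and 29.9 ± 1.67 FPKM with control antibody, with no overlap, a log2 change of -0.41 (adjusted p = 0.0325). Akr1c13, its close paralog, averaged 185 ± 39.9 and 244 ± 17.9 FPKM in the same order, a log2 change of -0.42 (adjusted p = 0.0441). Akr1c12 and Akr1c13 share 28.6% of their 50-base windows, so the authors' quantification could divide reads between them. Akr1c18, the mouse 20-alpha hydroxysteroid dehydrogenase that inactivates progesterone, had a log2 change of -1.12 that did not pass (adjusted p = 0.0821).

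Among the oxidising enzymes, Fmo1 fell and Cyp4f18 rose. Fmo1, a flavin monooxygenase that oxidises nitrogen and sulfur atoms of drugs, had 28.8, 15.4, 12.3, 20.1 and 23.3 FPKM with control antibody and GSK343, against 50.1, 30.4, 39.1 and 30.2 FPKM with control antibody. The groups did not overlap, and the log2 change was -0.90 ± 0.22 (SE, adjusted p = 0.0241). Fmo2 did not overlap between these groups either, at 0.60 to 10.06 FPKM with GSK343 and 10.08 to 13.8 FPKM without, yet did not pass (log2 -1.11, adjusted p = 0.119).

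Cyp4f18 (ENSMUSG00000003484, chr8:71988482-72009626, minus strand), which in mouse neutrophils inactivates leukotriene B4, was the 1 of 25 P450 genes that passed. It had 14.7, 19.8, 14.4, 16.8 and 20.2 FPKM with control antibody and GSK343, against 8.70, 9.67, 11.4 and 2.93 FPKM with control antibody. All 5 GSK343 libraries lay above all 4 controls, and the log2 change was 1.10 ± 0.23 (SE, adjusted p = 0.0115). The gene overlaps Zfp961 in the table. The macrophage marker score was 5.27 to 5.57 in the same GSK343 libraries and 4.15 to 4.98 in the controls, and the neutrophil score 2.98 to 4.09 and 2.43 to 3.97. The part of either in the Cyp4f18 result was not tested. Cyp1a1, the P450 induced through the aryl hydrocarbon receptor, did not pass (13.03 ± 3.02 FPKM with GSK343, 17.4 ± 5.96 without, log2 -0.36, adjusted p = 0.412).

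Ester hydrolysis, conjugation and export each had 1 gene that passed as lower. Ces2e (ENSMUSG00000031886, chr8:104926260-104934672, plus strand), a carboxylesterase, had 2.55, 1.92, 0.70, 2.24 and 2.08 FPKM with control antibody and GSK343, against 16.3, 4.23, 7.65 and 5.06 FPKM with control antibody. The ranges did not overlap and the log2 change was -1.56 ± 0.42 (SE, adjusted p = 0.0360). Gsta4, the alpha-class transferase that conjugates the lipid aldehyde 4-hydroxynonenal, had 22.3, 7.03, 4.70, 8.56 and 9.39 FPKM with control antibody and GSK343, against 26.7, 21.6, 22.3 and 14.97 FPKM with control antibody. Replicate 1 of the GSK343 group lay among the controls and the other 4 lay below them (log2 -1.12 ± 0.30, adjusted p = 0.0351).

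Abcc2 (ENSMUSG00000025194, chr19:43782192-43840740, plus strand) is the apical pump that exports glucuronide and glutathione conjugates, bilirubin glucuronide among them, into bile. It had 36.2, 33.8, 27.7, 27.4 and 35.0 FPKM with control antibody and GSK343, against 59.0, 69.5, 51.8 and 53.3 FPKM with control antibody. The highest GSK343 library was below the lowest control library, and the log2 change was -0.85 ± 0.19 (SE, adjusted p = 0.0139), a mean 0.548 times the control antibody level. The other 6 Abcc genes did not pass. None of the 6 Ugt genes tested or the 3 Sult genes passed, with family medians of -0.42 and -0.12. Gsta3, another alpha-class transferase, averaged 20.4 ± 7.53 FPKM with GSK343 and 46.8 ± 8.66 without and did not pass (log2 -1.20, adjusted p = 0.0994).

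The leading genes of the other families overlapped between these groups or did not pass. Ugt2b34, the highest glucuronosyltransferase, had 20.8 to 28.2 FPKM with control antibody and GSK343 and 29.5 to 39.9 FPKM with control antibody, with no overlap (log2 -0.32, adjusted p = 0.375). Ugt2b35 averaged 3.41 ± 1.29 and 5.49 ± 1.43 FPKM (log2 -0.59, adjusted p = 0.438). Ces2g, a carboxylesterase beside Ces2e, averaged 1.15 ± 0.102 and 1.72 ± 0.651 FPKM (log2 -0.31, adjusted p = 0.531). Sult1a1, a phenol sulfotransferase, averaged 5.01 ± 1.04 and 5.91 ± 3.14 FPKM (log2 -0.12, adjusted p = 0.882), and Sult1c2 averaged 3.32 ± 0.838 and 4.68 ± 1.09 FPKM (log2 -0.40, adjusted p = 0.195). Of the exporters, Abcc5, which carries cyclic nucleotides, averaged 15.9 ± 2.49 and 15.7 ± 1.39 FPKM (log2 0.01, adjusted p = 0.976). Ugt1a1, the bilirubin glucuronosyltransferase, was not tested and ranged from 0 to 1.87 FPKM with GSK343 and from 0 to 0.992 FPKM without.

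**Figure D2:**
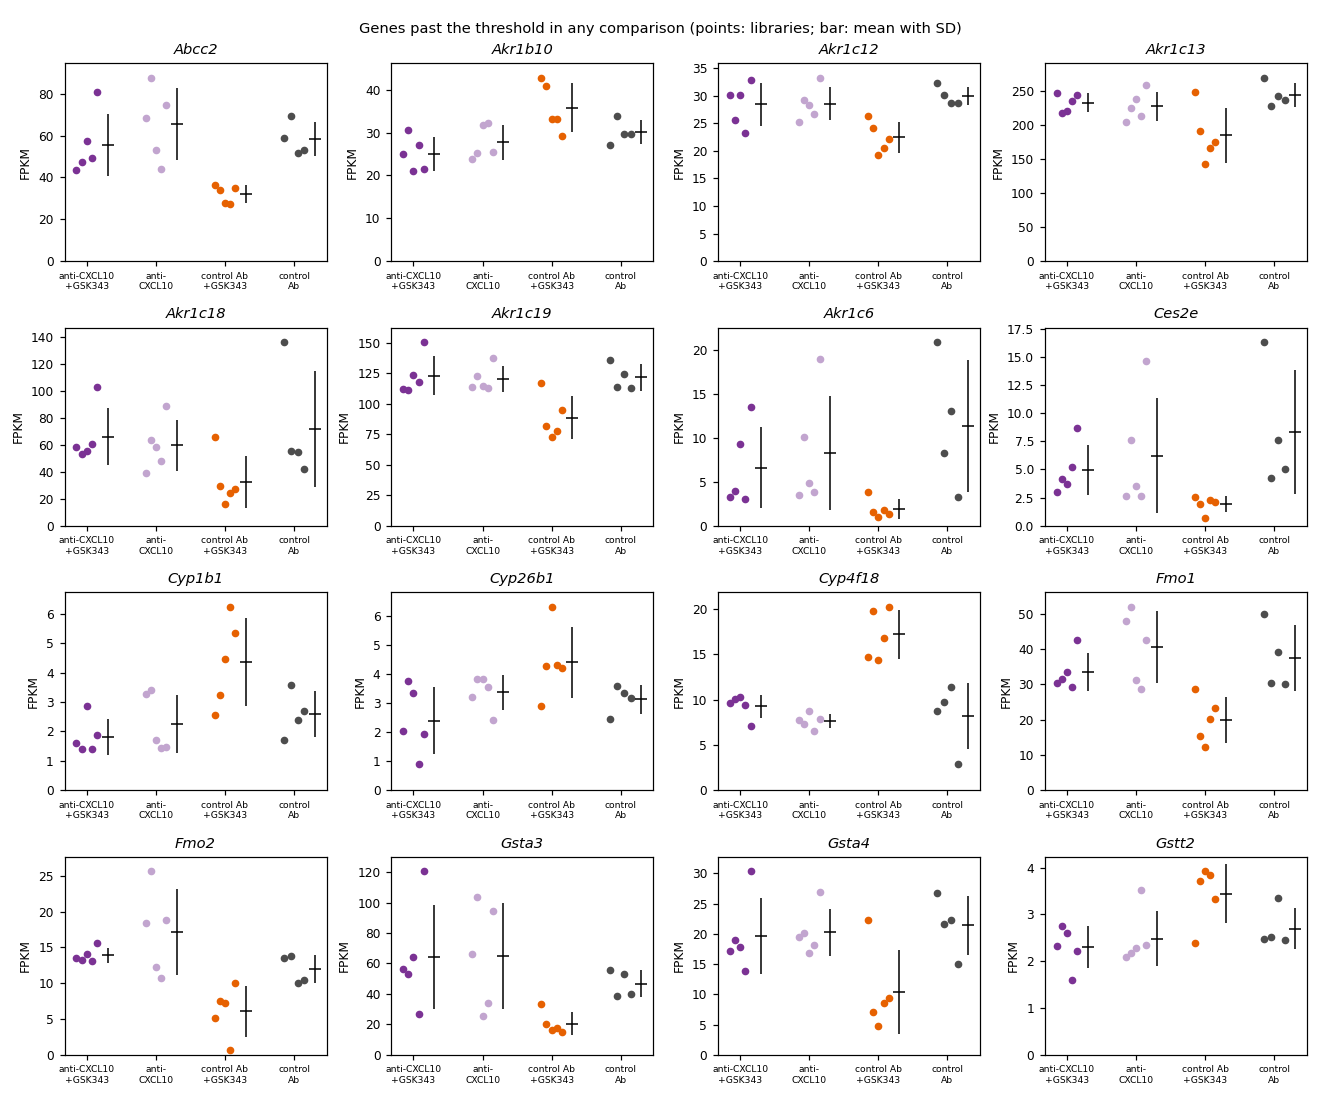
FPKM per library of the 16 members that passed in at least 1 comparison, by group, with 1 point per library and a bar at the group mean with its SD. For Abcc2 the control antibody with GSK343 libraries lie at 27.4 to 36.2 FPKM, and for Cyp4f18 at 14.4 to 20.2 FPKM.

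The lower levels came in the same libraries as lower levels of hepatocyte genes. The hepatocyte and hepatoma score, the mean log2(FPKM + 1) of 21 marker genes, was 4.11 to 5.08 with control antibody and GSK343 and 4.66 to 6.31 with control antibody (exact two-sided permutation p = 0.0317, adjusted 0.127 over 44 tests). The summed level of those 21 genes was 5393 to 7749 FPKM and 8078 to 10627 FPKM, and 20 of the 21 had a log2 change below 0. Albumin averaged 2216 and 3004 FPKM and so was present in both groups. Some markers of the list were near the floor with GSK343: Apoh averaged 0.672 and 6.58 FPKM and Plg 0.497 and 4.80 FPKM in the same order. Immune markers ran the other way. The B and plasma cell score was 3.93 to 5.38 with GSK343 and 1.06 to 3.66 with control antibody alone (exact permutation p = 0.00794, adjusted 0.0582), with all 4 tested genes of the list called higher and a median log2 change of 3.17. The NK cell score was 2.21 to 3.73 and 1.81 to 2.48 (exact permutation p = 0.0317, adjusted 0.127). The T cell score was 2.64 to 4.01 with GSK343 and 1.94 to 2.44 with control antibody alone (exact permutation p = 0.0159, adjusted 0.0998), and the macrophage difference had the smallest p that the design allows (0.00794, adjusted 0.0582). Muscle markers were high in 3 of the 5 GSK343 libraries, replicates 3, 4 and 5, with scores of 4.61, 6.60 and 4.53 against 1.12 to 2.45 in the controls. In bulk tumors, fewer cells of a type and less RNA per cell cannot be told apart, and the part of these shifts in the results above was not tested.

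**Figure D3:**
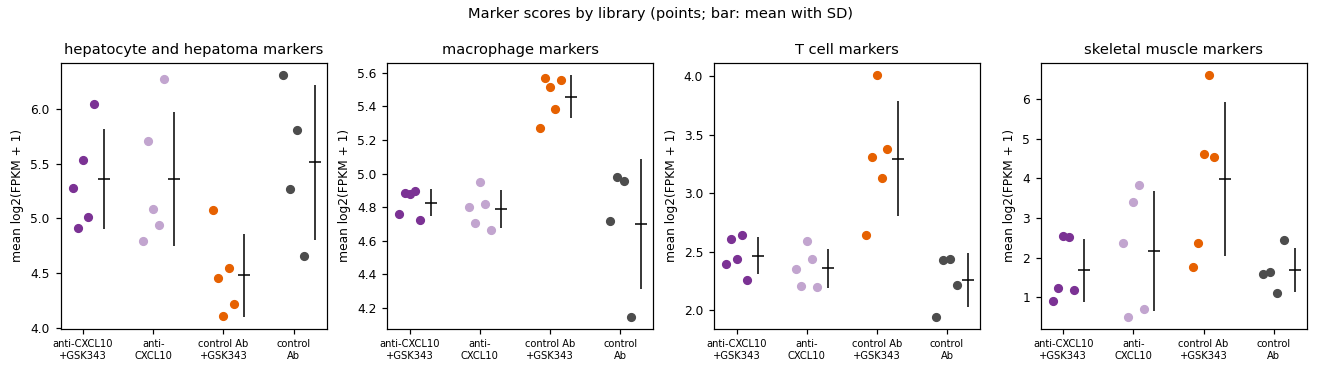
Mean log2(FPKM + 1) of the hepatocyte, macrophage, T cell and skeletal muscle marker lists, by group, with 1 point per library and a bar at the group mean with its SD. The control antibody with GSK343 libraries span 4.11 to 5.08 on the hepatocyte list and 1.78 to 6.60 on the muscle list.

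Several alternatives ended these calls. Without the 3 libraries highest in muscle markers, which leaves 2 GSK343 libraries, none of the 9 passed: Abcc2 had a log2 change of -0.72 (adjusted p = 0.220), Akr1c6 -1.58 (adjusted p = 0.335) and Cyp4f18 1.10 (adjusted p = 0.144), while 11 genes of the whole table were called higher and 3 lower. With the hepatocyte score as a covariate none passed either, at adjusted p from 0.0883 to 0.650, and the log2 change was -0.43 for Akr1c6, -0.54 for Abcc2 and 1.29 for Cyp4f18. With the muscle score as a covariate the adjusted p of the 9 ran from 0.0878 to 0.476. Of all 14385 genes, 4 were called higher and 0 lower with the hepatocyte score, and 21 and 0 with the muscle score. The main model called 627 higher and 160 lower. Calls were thus lost across the whole table, and the loss is not particular to the members. Of the 9 calls, 2 remained without control antibody replicate 1, 5 without replicate 2, 3 without replicate 3 and 5 without replicate 5. In the GSK343 group, all 9 remained without replicate 1, 3 without replicate 2, 2 without replicate 3, 3 without replicate 4 and 4 without replicate 5. Akr1c13 also missed the threshold, at adjusted p of 0.0502 to 0.0568, without anti-CXCL10 replicate 1 or 3 and without any 1 of the 5 anti-CXCL10 with GSK343 replicates. Abcc2 and Cyp4f18 passed whichever of the 19 libraries was dropped, at adjusted p of 0.00737 to 0.0481 and 0.00551 to 0.0331. When the model held only the groups compared, Abcc2 alone of the 9 passed, and the others had adjusted p of 0.0571 to 0.166. Akr1c13 missed under median-ratio scaling (adjusted p = 0.0745), and without control antibody replicate 5 the change of Cyp4f18 was 0.73, still past the threshold.

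**Figure D4:**
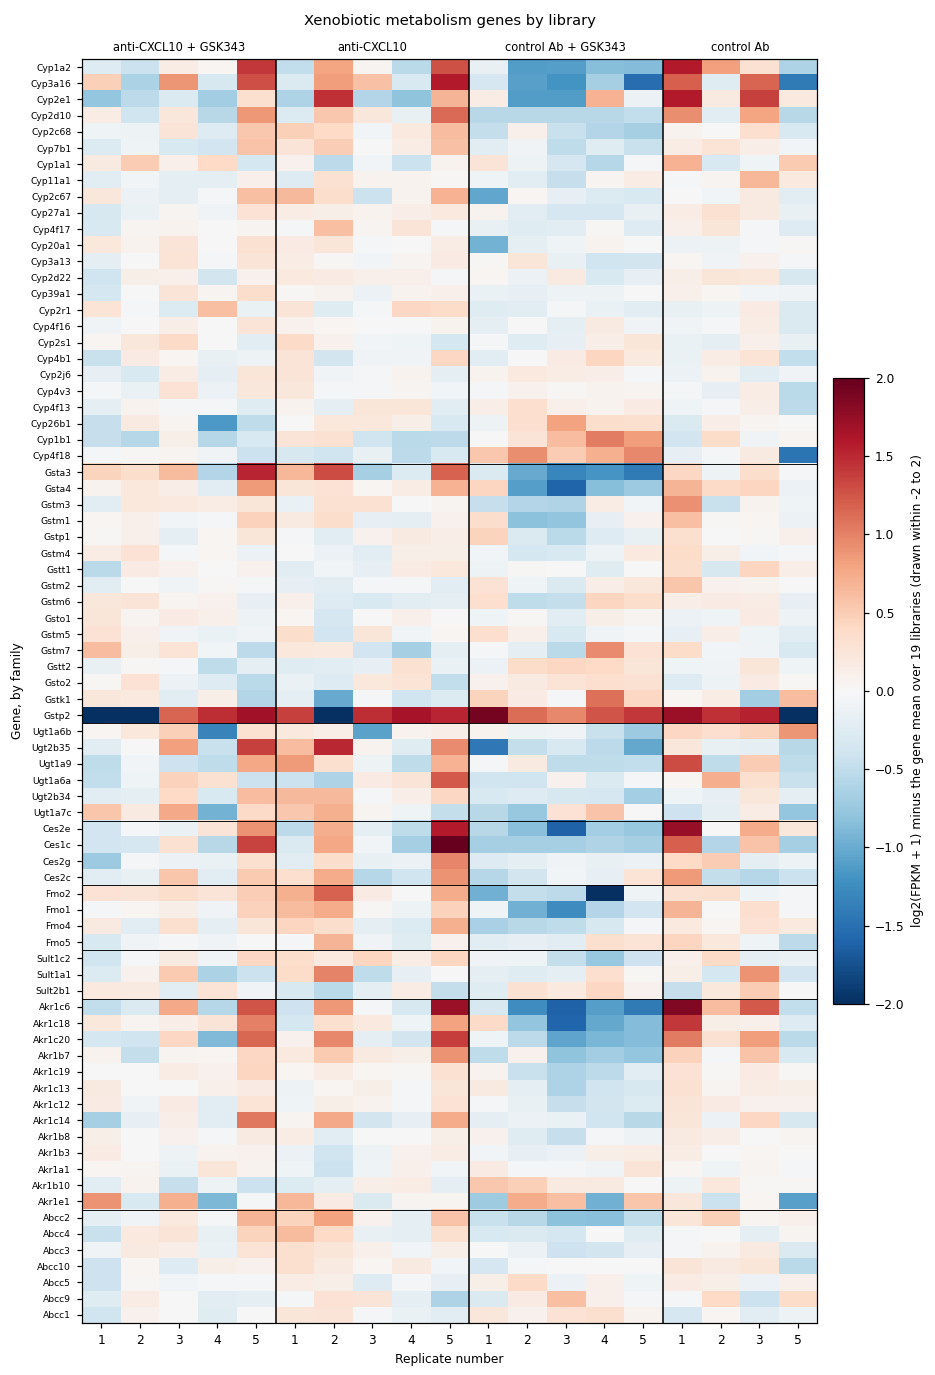
Deviation of each tested member from its mean over all 19 libraries, in log2(FPKM + 1) and drawn within -2 to 2, with libraries in columns by group. The median deviation of the members was -0.26 to -0.07 in the 5 control antibody with GSK343 libraries and -0.11 to 0.16 in the 4 control antibody libraries.

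Many of the genes lie side by side, and some of these clusters had changes of one sign while others were mixed. The 5 Akr1c genes between 4049011 and 4279433 on chromosome 13 had log2 changes of -1.12 to -0.33 with GSK343 under control antibody. Fmo4, Fmo1 and Fmo2, side by side between 162793188 and 162898726 on chromosome 1, had -1.11 to -0.59. The 7 Gstm genes of chromosome 3, between 107895821 and 108044894, had -0.42 to 0.11, and Akr1c6, Akr1c20 and Akr1e1, between 4434306 and 4609174 on chromosome 13, had -1.94 to 0.36. Of the 81 genes, 29 shared over 5% of their 50-base windows with any other annotated gene, pseudogenes and genes outside the family included. Ugt1a6b shared 79.8%, mostly with Ugt1a6a, and Gstp1 shared 51.0% with Gstp2. Fmo1 shared 8.6%, mostly with Sgip1, which is outside its family. Abcc2 shared 0.163% and Cyp4f18 0.412%.

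Upstream sequence was read for the genes that the tables hold. RefSeq promoters (GRCm38.p6, 250 bases before to 50 after the start) were matched for 69 of the 81 genes. The 5 printed here were chosen after their values were seen: 3 genes that fell with GSK343 under control antibody, the 1 that rose, and Gsto1, which did not pass (log2 0.01, 95% interval -0.19 to 0.22). Each is the 250 bases before the RefSeq start, 5′ to 3′ on the gene's strand, with CpG dinucleotides in capitals. For Akr1c6, Abcc2 and Gsto1 the gene span listed with the levels starts before the RefSeq start. The last bases of those stretches therefore lie inside the listed gene.
Akr1c6, chr13:4434093-4434342, plus strand: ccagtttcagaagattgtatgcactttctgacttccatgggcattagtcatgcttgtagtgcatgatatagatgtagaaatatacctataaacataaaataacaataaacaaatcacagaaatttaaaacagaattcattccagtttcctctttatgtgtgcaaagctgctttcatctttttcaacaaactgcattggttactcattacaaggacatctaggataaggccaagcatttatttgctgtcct
Abcc2, chr19:43782058-43782307, plus strand: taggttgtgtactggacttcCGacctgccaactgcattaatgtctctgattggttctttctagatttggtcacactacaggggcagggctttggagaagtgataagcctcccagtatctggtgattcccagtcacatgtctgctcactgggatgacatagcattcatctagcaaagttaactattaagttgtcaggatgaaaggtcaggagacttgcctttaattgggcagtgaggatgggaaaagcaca
Ces2e, chr8:104926010-104926259, plus strand: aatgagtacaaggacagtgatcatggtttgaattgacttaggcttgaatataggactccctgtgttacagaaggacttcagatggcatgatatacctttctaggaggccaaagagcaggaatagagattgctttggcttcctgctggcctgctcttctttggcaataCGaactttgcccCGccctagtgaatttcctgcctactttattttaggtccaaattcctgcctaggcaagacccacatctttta
Cyp4f18, chr8:72009627-72009876, minus strand: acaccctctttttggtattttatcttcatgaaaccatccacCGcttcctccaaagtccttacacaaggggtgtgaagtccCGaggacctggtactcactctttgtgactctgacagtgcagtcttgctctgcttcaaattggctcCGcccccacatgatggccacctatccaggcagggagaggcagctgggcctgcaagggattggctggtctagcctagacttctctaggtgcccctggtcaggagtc
Gsto1, chr19:47854723-47854972, plus strand: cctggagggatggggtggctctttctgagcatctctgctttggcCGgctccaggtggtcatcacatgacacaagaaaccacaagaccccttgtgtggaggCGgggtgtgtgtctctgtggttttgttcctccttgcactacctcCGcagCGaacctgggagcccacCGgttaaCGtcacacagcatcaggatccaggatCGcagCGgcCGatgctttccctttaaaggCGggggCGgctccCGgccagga

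These sequences hold 0, 1, 2, 3 and 12 CpG dinucleotides in that order. The detoxification promoters were CpG-poor as a class: the median over the full window was 4 CpG against 7 over the 32851 promoters of the table, and 14.5% against 35.8% had an observed to expected CpG ratio of 0.6 or more. Repeated promoters of a gene were dropped for the members only. The 32851 covered every promoter listed, whether or not its gene was tested here. The 6 lowered genes with a promoter in the table had a median of 1.5 CpG, and the 60 other tested genes 5.5. The 6 include the paralogs Akr1c6, Akr1c12, Akr1c13 and Akr1c19, so they are not independent. A link of CpG content to the GSK343 change was not tested. On both strands, GCGTG, the core of the aryl hydrocarbon receptor element, was found in 20.3% of the members' promoters and 32.4% of all. TGACNNNGC, the antioxidant response element core, was found in 11.6% and 12.4%. CCAAT was found in 52.2% and 37.4%, and TATAAA in 17.4% and 13.6%. A match describes letters in this window, not a bound site.

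Under anti-CXCL10 antibody, GSK343 was followed by no call. None of the 78 genes passed in anti-CXCL10 with GSK343 against anti-CXCL10 alone, and neither did any of the 14385 (0%). At an unadjusted p of 0.05, 1 member was lower (Cyp7b1, oxysterol 7-alpha hydroxylase, log2 -0.39, named after its value was seen) and 0 were higher, beside 1.24% and 1.67% of all genes. The median over the 78 was -0.07, against 0.01 over all genes, and 52 lay below 0 (66.7%, against 46.8%). Of the 78, 1 lay below -0.5, Gstp2, whose value comes from libraries listed at 0, and 0 lay above 0.5, beside 1.17% and 1.09% of all genes, and for 0 did the groups not overlap, beside 0.271% higher and 0.125% lower.

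Abcc2 had 43.3, 47.3, 57.4, 49.3 and 80.6 FPKM with anti-CXCL10 and GSK343, against 68.2, 87.6, 52.9, 44.0 and 74.5 FPKM with anti-CXCL10. The ranges overlapped, and the log2 change of -0.23 had a 95% interval of -0.60 to 0.15. Akr1c6 had 3.28, 3.95, 9.28, 3.10 and 13.5 FPKM, against 3.53, 10.1, 4.92, 3.88 and 18.99 FPKM, a log2 change of -0.23 with an interval of -1.24 to 0.78. Cyp4f18 had 9.56, 10.1, 10.3, 9.37 and 7.07 FPKM, against 7.70, 7.26, 8.78, 6.58 and 7.82 FPKM. Its log2 change of 0.25 had an interval of -0.22 to 0.71. For Akr1c12, Akr1c13 and Akr1c19 the intervals were narrow, at -0.22 to 0.20, -0.20 to 0.27 and -0.22 to 0.27.

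The difference between the 2 GSK343 effects was tested directly. No member passed, and 9 genes of the table did (0.0626%, all lower). The difference in log2 change was 0.50 ± 0.17 for Akr1c19 (SE, adjusted p = 0.208), 0.62 ± 0.26 for Abcc2 (adjusted p = 0.307), 1.70 ± 0.70 for Akr1c6 (adjusted p = 0.299) and -0.85 ± 0.32 for Cyp4f18 (adjusted p = 0.254). The GSK343 effect was therefore not shown to differ between antibodies for any member. At an unadjusted p of 0.05 the difference was positive for 13 members (16.7%, against 5.11% of all genes) and negative for 6 (7.69%, against 7.83%). It lay below 0 for 25 members (32.1%, against 42.7%), below -0.5 for 4 (5.13%, against 9.56%) and above 0.5 for 15 (19.2%, against 4% of all genes). Without control antibody with GSK343 replicate 1, 3 members passed. Leaving out that library also raised calls over all genes with GSK343 under control antibody. They went from 4.36% higher and 1.11% lower to 7.11% and 2.53%. Averaged over both antibodies, 0 members passed beside 0.938% of all genes, with Abcc2 at -0.54 (adjusted p = 0.0552) and Cyp4f18 at 0.67 (adjusted p = 0.0547). At an unadjusted p of 0.05, 22 members were lower on average (28.2%, against 4.62% of all genes) and 1 was higher (1.28%, against 7.7%). The average lay below 0 for 55 (70.5%, against 53.5%), below -0.5 for 14 (17.9%, against 0.876%) and above 0.5 for 1 (1.28%, against 2.84%). Without control antibody with GSK343 replicate 1, 5 members were lower on average. The shares of all genes called for the difference and the average without that library are not given here. The added calls therefore cannot be read as particular to the members.

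**Figure D5:**
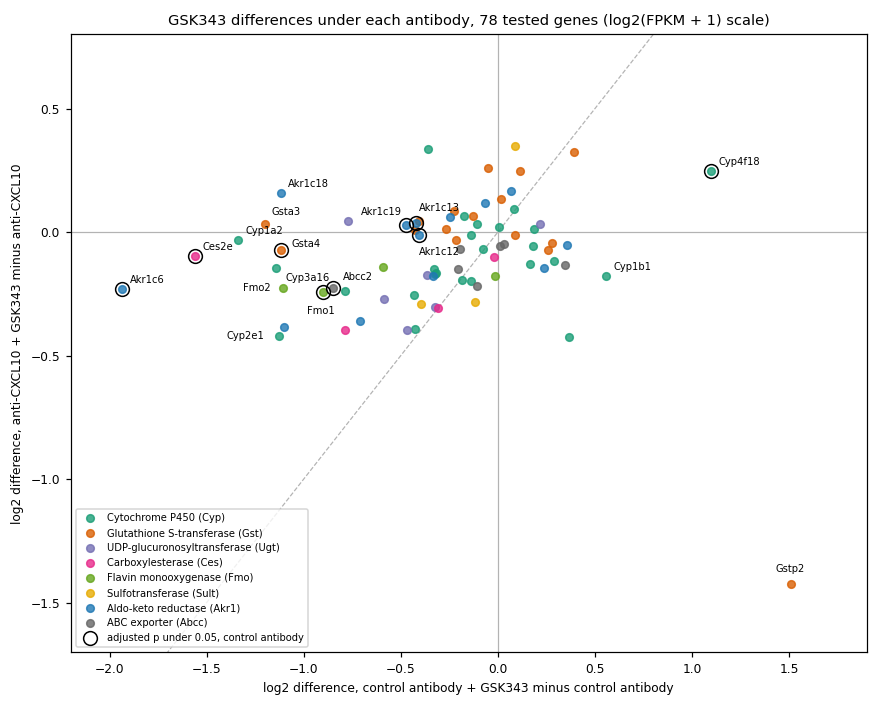
Log2 change with GSK343 under anti-CXCL10 antibody (vertical axis) against that under control antibody (horizontal axis), with 1 point per tested member, rings on the 9 that passed under control antibody and a dashed line of equal change. Abcc2 lies at -0.23 and -0.85, and Cyp4f18 at 0.25 and 1.10.

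Between the GSK343 groups, the antibody comparison had more calls. With anti-CXCL10 and GSK343 against control antibody and GSK343, 13 of 78 members passed (16.7%, beside 10.1% of all genes), 8 higher (10.3%, beside 3.48%) and 5 lower (6.41%, beside 6.64%). This comparison shares the control antibody with GSK343 libraries with the one above, so the 2 sets of calls are not independent. Abcc2 rose by 0.75 ± 0.18 (SE, adjusted p = 0.0136), Akr1c19 by 0.48 ± 0.12 (adjusted p = 0.0147) and Fmo1 by 0.76 ± 0.21 (adjusted p = 0.0293). Gsta4 rose by 0.98 ± 0.28 (adjusted p = 0.0351) and Akr1c12 by 0.32 ± 0.10 (adjusted p = 0.0495). At an unadjusted p of 0.05, 22 members were higher (28.2%, against 12% of all genes) and 7 lower (8.97%, against 13.7%). The log2 change lay below 0 for 23 (29.5%, against 44.9%), below -0.5 for 4 (5.13%, against 9.06%) and above 0.5 for 15 (19.2%, against 3.18%). The groups did not overlap for 5 higher members (6.41%, against 4.12%) and 2 lower ones (2.56%, against 4.65%).

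Fmo2, Gsta3 and Akr1c18 passed here. Fmo2 had 13.5, 13.2, 14.0, 13.1 and 15.6 FPKM with anti-CXCL10 and GSK343, against 5.09, 7.52, 7.18, 0.60 and 10.1 FPKM with control antibody and GSK343. The groups did not overlap (log2 1.32 ± 0.37, adjusted p = 0.0319). Without control antibody with GSK343 replicate 4, the library at 0.60 FPKM, the change was 0.84 (adjusted p = 0.0208), and without any 1 of the anti-CXCL10 with GSK343 libraries it missed the threshold (adjusted p up to 0.0723). Gsta3 had 56.6, 52.9, 64.5, 27.0 and 120.5 FPKM, against 33.4, 20.1, 16.0, 17.6 and 14.9 FPKM, and anti-CXCL10 with GSK343 replicate 4 lay inside the control antibody with GSK343 range (log2 1.51 ± 0.38, adjusted p = 0.0189). Akr1c18 averaged 65.99 ± 20.8 and 32.5 ± 19.3 FPKM (log2 1.11, adjusted p = 0.0456).

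The 5 lower genes were Cyp4f18, Cyp1b1, Cyp26b1, Akr1b10 and Gstt2. Cyp1b1, an extrahepatic P450 of the aryl hydrocarbon receptor battery, had 1.59, 1.39, 2.85, 1.39 and 1.88 FPKM with anti-CXCL10 and GSK343, against 2.55, 3.25, 4.45, 6.23 and 5.34 FPKM with control antibody and GSK343 (log2 -0.90 ± 0.22, adjusted p = 0.0159). The groups overlapped by the highest anti-CXCL10 and the lowest control antibody library. Cyp26b1, which breaks down retinoic acid, averaged 2.40 ± 1.16 and 4.42 ± 1.22 FPKM (log2 -0.72, adjusted p = 0.0365). Akr1b10 averaged 25.05 ± 4.02 and 35.8 ± 5.77 FPKM (log2 -0.50, adjusted p = 0.0172). Gstt2, a theta-class transferase, averaged 2.30 ± 0.45 and 3.44 ± 0.631 FPKM (log2 -0.43, adjusted p = 0.0494), and Cyp4f18 fell by 0.82 (adjusted p = 0.0258).

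Marker lists differed in this comparison too, without passing after adjustment as scores. The hepatocyte score was 4.92 to 6.05 with anti-CXCL10 and GSK343 and 4.11 to 5.08 with control antibody and GSK343 (exact permutation p = 0.0238, adjusted 0.127). The T cell score was 2.26 to 2.64 and 2.64 to 4.01, the macrophage score 4.72 to 4.89 and 5.27 to 5.57, and the B and plasma cell score 0.995 to 2.82 and 3.93 to 5.38 (exact permutation p = 0.00794 each, adjusted 0.0582). Among single genes, 11 of 15 T cell, 8 of 12 macrophage, 4 of 4 B and plasma cell and 4 of 10 fibroblast markers were called lower. So were 4 of 6 NK cell, 2 of 6 neutrophil and 1 of 17 skeletal muscle markers, beside 6.64% of all genes. Of the 21 hepatocyte markers, 4 were called higher, beside 3.48% of all genes, and 0 lower. The part of these lists in the results, the lower Cyp4f18, Cyp1b1 and Cyp26b1 among them, was not tested. Without the 3 muscle-rich libraries, 2 members were higher and 1 lower, and of the 13 calls Akr1b10 and Fmo2 remained. With either score as a covariate none passed, at adjusted p of 0.0798 to 0.448 for muscle and 0.0830 to 0.517 for hepatocyte markers. Calls over all genes without those libraries or with these covariates are not given here. The losses therefore cannot be read as particular to the members. Of the 13 calls, 7, 9, 7, 9 and 3 remained without anti-CXCL10 with GSK343 replicates 1 to 5 in turn, and 13, 6, 7, 8 and 7 without control antibody with GSK343 replicates 1 to 5. Leaving out a library of the other groups kept 10 to 12, with losses among Akr1c12, Akr1c18 and Gstt2. Calls also ended under median-ratio scaling (Akr1c12 and Akr1c18), quantile normalization (Akr1c12 and Gstt2), a pseudocount of 0.1 (Akr1c12, Fmo2 and Gstt2), no variance trend (Akr1c12) and a stricter filter (Gstt2), at adjusted p of up to 0.0709. When the model held only the groups compared, 6 of the 13 passed. Abcc2, Akr1c19 and Cyp1b1 passed whichever library was dropped.

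Without GSK343, anti-CXCL10 antibody against control antibody gave 0 calls among the 78, beside 0.0139% of all genes. At an unadjusted p of 0.05, 1 member was higher and 1 lower (1.28% each, against 2.79% and 4.01% of all genes). The change lay below 0 for 34 members (43.6%, against 53.1%), below -0.5 for 2 (2.56%, against 1.88%) and above 0.5 for 1 (1.28%, against 2.33%). The groups did not overlap for 2 lower members (2.56%, against 1.61%) and 0 higher ones (against 0.925%). The higher one at the unadjusted threshold, Ugt2b34, averaged 45.0 ± 9.36 FPKM with anti-CXCL10 and 32.9 ± 4.74 FPKM with control antibody (log2 0.42, adjusted p = 0.700). Cyp2e1 averaged 1.70 ± 2.03 and 3.23 ± 2.08 FPKM (log2 -0.80, adjusted p = 0.754). Ugt2b35 averaged 10.7 ± 5.63 and 5.49 ± 1.43 FPKM (log2 0.74, adjusted p = 0.737), and Ugt1a6b averaged 3.73 ± 1.37 and 6.03 ± 1.296 FPKM (log2 -0.62, adjusted p = 0.737).

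The wider detoxification network, from lists of genes outside the 81, had calls only among the other detoxification enzymes with GSK343 under control antibody. Several of the lists leaned the same way as the members, and the antioxidant list did not. The median log2 change was -0.19 over the 31 other detoxification enzymes, with 25 of them below 0. It was -0.16 over 14 genes of P450 electron supply and haem synthesis, with 13 below 0, and -0.44 over 5 other transporters. Over 20 antioxidant genes driven by NRF2 it was 0.08, with 8 below 0. All genes had a median of -0.03, and 56.6% of them lay below 0. Of the 31, 2 passed as higher and 1 as lower, beside 4.36% and 1.11% of all genes. The aldehyde dehydrogenase Aldh1b1 rose by 0.73 (adjusted p = 0.0139) and the purine oxidase Xdh by 0.92 (adjusted p = 0.0434), while Aldh1a7 fell by 0.53 (adjusted p = 0.0177). None passed of 16 nuclear receptors and other sensors, 20 antioxidant genes driven by NRF2, the 14 genes of P450 electron supply and haem synthesis, or the 5 transporters. With anti-CXCL10 and GSK343 against control antibody and GSK343, the hepatic nuclear receptor Hnf4a rose (28.4 ± 4.60 and 20.1 ± 3.07 FPKM, log2 0.47, adjusted p = 0.0474). Por, the reductase that passes electrons to P450 enzymes, averaged 62.2 ± 17.6 and 35.1 ± 10.7 FPKM (log2 0.81, adjusted p = 0.0396). Por and Fech were the 2 of 14 that passed as higher, beside 3.48% of all genes, and 3 of the 14 lay below 0. Of the 31 other detoxification enzymes 5 passed as higher, led by Aldh3a2 (log2 0.52, adjusted p = 0.00888), and Aldh1b1 passed as lower (log2 -0.64, adjusted p = 0.0145). Of the 20 antioxidant genes Txnrd1 passed as higher (log2 0.27, adjusted p = 0.0475) and Prdx1 as lower (log2 -0.93, adjusted p = 0.0226), and 0 of the 5 transporters passed. In both other comparisons, 0 genes of these lists passed.

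Gstp2 was listed at 0 in 4 libraries: anti-CXCL10 with GSK343 replicates 1 and 2, anti-CXCL10 replicate 2 and control antibody replicate 5. Its neighbour Gstp1 stood at 179.9 to 226 FPKM in those 4. In the other 15 libraries Gstp2 was at 82.8 to 162 FPKM and Gstp1 at 144 to 286. Of their 50-base windows, 50.4% in Gstp2 and 51.0% in Gstp1 are shared with another gene. A listed 0 may be a failed estimate, the cause was not tested, and its fitted changes are not read as a result. They are counted in the totals above past 0.5 or -0.5 on the log2 scale: 1.51 with GSK343 under control antibody, -1.42 with GSK343 under anti-CXCL10, -2.93 for the difference between these effects, and -2.64 with anti-CXCL10 and GSK343 against control antibody and GSK343.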

How the data were processed

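RNA-seq of HEPA1-6 tumors was deposited by the authors as 1 table of normalized levels per gene and library, with no unit in the header. The values were taken as FPKM because, per the labels' tools and from the values, length-weighted sums varied by 0.790% between libraries and plain sums by 4.06%. The submitters' processing notes name Trimmomatic 0.33, TopHat2 2.1.0, HISAT2 2.1.0, HTSeq 0.6.0, StringTie 1.3.3b and the GRCm38 build, with no role for each. Depth is unknown. Whole-read steps were looked for only between control antibody replicates 1 and 2, over 86 genes under 0.5 FPKM in both. None were seen there, and the other libraries were not checked. Sums ran from 533606 to 629679 FPKM per library.

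Rows of 8 repeated gene IDs were summed, which left 14633 genes, and the 14385 with at least 1 FPKM in 5 or more libraries were fitted with limma 3.58.1 (R 4.3.3, trend and robust variance) as log2(FPKM + 1) on 4 group means. Marker scores were compared by exact permutation. Named genes are the members called in any comparison, the 2 highest per family, the 3 largest changes per comparison, and fixed examples. The members and lists were chosen with earlier results of these data known. The series text gives 3 replicates per condition and the labels number 5. A result of the list of receptors and sensors is not reported here.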

Additional observations from a re-analysis of the deposited data

Results flagged for a closer look

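In 16 of 172 groups of library values, 1 library stood apart from the others by Dixon's criterion, where chance gives about 1 in 20. Among the reductases, Akr1c18 was at 103 FPKM in anti-CXCL10 with GSK343 replicate 5 (others 52.8 to 60.4), at 65.9 in control antibody with GSK343 replicate 1 (others 16.1 to 29.0) and at 136 in control antibody replicate 1 (others 42.0 to 55.1). That GSK343 replicate 1 also stood apart in Gsta3, at 33.4 FPKM against 14.9 to 20.1, and in Gsta4, at 22.3 FPKM against 4.70 to 9.39. Its hepatocyte score, 5.08, was the highest of its group.

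Ugt2b34 was at 20.8 FPKM in control antibody with GSK343 replicate 5 (others 26.8 to 28.2). Cyp4f18 was at 7.07 FPKM in anti-CXCL10 with GSK343 replicate 5 (others 9.37 to 10.3), and Abcc5 at 10.97 FPKM in replicate 1 of that group (others 14.4 to 15.2). Gsto1 was at 155 FPKM in anti-CXCL10 replicate 2 (others 196.5 to 211) and at 221 FPKM in control antibody replicate 3 (others 182 to 185). Gstt2 was at 3.52 FPKM in anti-CXCL10 replicate 4 (others 2.09 to 2.34) and at 3.34 FPKM in control antibody replicate 3 (others 2.45 to 2.51). Ugt1a6b was at 1.31 FPKM in anti-CXCL10 replicate 3 (others 4.11 to 4.58) and at 7.95 FPKM in control antibody replicate 5 (others 5.14 to 5.58). Gstp2 was listed at 0 in anti-CXCL10 replicate 2 (others 110.1 to 134) and in control antibody replicate 5 (others 117 to 141).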

How the results depend on the processing

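Counts are members called higher and lower. For GSK343 under control antibody (1 and 8), they were 0 and 0 without the 3 muscle-rich libraries and with either marker score as a covariate, 0 and 2 with only the groups compared, and 1 and 1 to 12 leaving out 1 library each. Over all genes, the hepatocyte covariate left 0.0278% higher and 0% lower, and the muscle covariate 0.146% and 0%. The 12 came without control antibody with GSK343 replicate 1, where 2.53% of all genes were called lower. Averaged over both antibodies (0 and 0), 1 was higher under median-ratio scaling and under quantile normalization, and leaving out 1 library gave 0 to 1 higher and 0 to 5 lower. The difference between the GSK343 effects (0 and 0) gave 0 to 3 higher, 3 of them without control antibody with GSK343 replicate 1. For anti-CXCL10 with GSK343 (8 and 5), they were 2 and 1 without the muscle-rich libraries, 0 and 0 with either covariate, 4 and 3 with only the groups compared, and 2 to 10 and 1 to 5 leaving out 1 library. Both other comparisons kept 0 calls in every setting run. Gstp2 under control antibody turned to -0.24 without control antibody replicate 5, within a range of -0.24 to 2.14 leaving out 1 library. The causes were not tested.

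Same-numbered libraries had correlations of -0.20 to 0.32. Differently numbered libraries were not compared, so these values cannot decide whether the numbers pair libraries. With a replicate block, GSK343 under control antibody had 1 higher and 3 lower members, with Akr1c12, Akr1c13, Akr1c6, Ces2e and Gsta4 past the threshold no longer (adjusted p = 0.0502 to 0.0848), and anti-CXCL10 with GSK343 lost Akr1c18 and Gstt2 (adjusted p = 0.0503 to 0.0582). Depth is unknown, so counting error behind low FPKM values cannot be given.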
